A study of Mus musculus with 8 samples.

Results

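R-spondins, their LGR receptors and the membrane ligases ZNRF3 and RNF43 set how much Wnt receptor a cell carries on its surface, and their transcripts were followed here in mammary cells of mice that had gone through an early pregnancy and of virgin mice of the same age. The 9 genes are Rspo1, Rspo2, Rspo3, Rspo4, Lgr4, Lgr5, Lgr6, Znrf3 and Rnf43. They were taken by symbol, as the probe sets of the array whose only annotated gene was one of them, and each gene had 1 such probe set, which gave 9 of the 21640 probe sets that name 1 gene and of 34760 probe sets in all. None of the 9 passed the criteria for a change after pregnancy. Lgr5 was lower in every parous array than in every virgin array without passing the adjusted test, and Rspo1 varied far more among the virgin arrays than among the parous ones.

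R-spondins are secreted proteins that do not start Wnt signaling by themselves but strengthen it. ZNRF3 and RNF43 are ubiquitin ligases of the cell membrane that tag Frizzled receptors for removal, and an R-spondin that binds an LGR receptor together with 1 of these ligases takes the ligase off the surface, so that Frizzled stays. In the mouse mammary gland Rspo1 is known as a luminal product that acts with Wnt4 on basal stem cells, and Lgr5 and Lgr6 are known as markers of subsets of epithelial cells with progenitor capacity.

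Transcript levels came from 8 arrays (Affymetrix Mouse Gene 1.0 ST) of total mammary cell suspensions that had not been sorted. The parous group was 4 arrays of FVB/NHanHsd mice that had been mated at 42 days of age, had lactated for 21 days and, by the labels, had a further 28 days of involution (the methods give a longer time after weaning), and the virgin group was 4 arrays of age-matched mice of the same strain with no pregnancy. Each array held RNA of the fourth mammary glands pooled from 5 mice, so a replicate is a pool and not an animal, and neither labels nor methods give the estrous stage of a pool. The methods name this grouping of 5 or more mice per harvest as the control for the estrous cycle. Lymph nodes, adipocytes and red blood cells had been removed and fibroblasts reduced by attachment, which leaves a mixture of epithelial, stromal, vascular and immune cells.

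Values are log2 intensities after RMA (background correction, quantile normalization between arrays and 1 summary value per probe set), on which a difference of 1 is a 2-fold change. The array medians lay between 6.29 and 6.43, and correlations between arrays between 0.976 and 0.993. A probe set was called where it passed a fold change over 1.5, a limma adjusted p under 0.05 and a mean log2 value over 2. By these criteria 83 probe sets were higher in parous mice (0.239% of all) and 55 were lower (0.158%). As no detection call was available, a gene was named dim in a group where its group mean lay below 5.54, the 95th percentile of 1023 olfactory receptor probe sets, whose own median was 3.93. Probe sets differ in how brightly they hybridize, so levels are compared between arrays and never between genes. Epithelial genes were well represented: 6 of 6 pan-luminal and 10 of 10 basal and myoepithelial markers were measured and none was dim, whereas 4 of 6 keratinocyte and 2 of 5 adipocyte markers were dim in both groups. Nor was any of the 8 fibroblast, 9 endothelial and pericyte, 6 B cell and plasma cell or 7 T cell and macrophage markers measured dim in both groups.

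RefSeq windows around annotated gene starts (GRCm38.p6, 250 bases before to 50 after) were at hand for 5 of the 9 genes, in 6 windows: Lgr4, Lgr6, Rspo1 and Rspo4 with 1 each and Rnf43 with 2. The part of the window upstream of the gene's first annotated base is printed, 221 bases for Rspo1 and 152 for Lgr6. In both, that base lies before the start on which the window was set. Rspo1 was the ligand with the widest spread between arrays, and Lgr6 a receptor whose 2 highest values also fell on virgin replicates 2 and 4. The Rspo1 stretch is chr4:124986180-124986400 on the plus strand and the Lgr6 stretch is chr1:135105375-135105526 on the minus strand. CpG dinucleotides are in capitals.
Rspo1: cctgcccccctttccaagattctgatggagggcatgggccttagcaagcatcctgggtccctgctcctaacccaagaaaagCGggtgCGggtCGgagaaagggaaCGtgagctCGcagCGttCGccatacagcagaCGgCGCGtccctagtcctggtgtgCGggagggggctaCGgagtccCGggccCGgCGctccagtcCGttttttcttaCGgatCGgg
Lgr6: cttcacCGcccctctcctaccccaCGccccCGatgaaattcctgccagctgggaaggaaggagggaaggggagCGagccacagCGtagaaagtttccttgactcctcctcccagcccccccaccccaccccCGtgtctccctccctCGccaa
The 300-base window of Rspo1 held 29 CpG, a number reached by 12.9% of 32851 windows of this length, and that of Lgr6 held 24, reached by 20.0%, where the median window held 7. The sequence CTTTGA, the core of the site bound by TCF/LEF factors, was in none of the 6 windows on either strand and in 16.0% of all windows. The hexamer TGTTCT, bound by the glucocorticoid and progesterone receptors, was in 1 of the 6, a window of Rnf43, and in 19.0% of all windows. These matches describe the letters of the windows alone.

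Rspo1 had the widest spread of the 4 ligands. Its log2 values were 9.15, 9.26, 8.82 and 8.82 in parous replicates 1 to 4, against 9.04, 11.05, 8.06 and 11.16 in virgin replicates 1 to 4. The parous arrays lay within 0.447 of each other and inside the virgin range, whose span was 3.10, with virgin replicates 2 and 4 far above all other arrays and virgin replicate 3 below all of them. Only 0.124% of all probe sets had a virgin standard deviation as large. Means were 9.01 ± 0.23 in parous and 9.83 ± 1.53 in virgin mice (SD, n = 4 each), a log2 fold change of -0.82 (SE 0.65, 95% confidence interval -2.31 to 0.67, limma adjusted p = 0.703, exact 2-sided permutation p = 0.371). The interval runs from 4.94-fold lower to 1.59-fold higher in parous mice, so neither direction was settled. Without virgin replicate 4 the log2 fold change was -0.37, without virgin replicate 2 it was -0.41 and without virgin replicate 3 it was -1.41 (adjusted p = 0.255). Without virgin replicates 2 and 4 together, its 2 highest values, it was 0.46 (adjusted p = 0.825), the opposite sign. Leaving out the highest virgin values can only move it upward.

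The other ligands were at or near the level of the olfactory receptor probe sets. Rspo2, a ligand known in mice as a gene that mammary tumor virus insertion can activate, was dim in both groups, with 4.37, 4.41, 4.53 and 4.36 in parous and 4.17, 4.42, 4.34 and 4.61 in virgin mice. Its log2 fold change was 0.036 (SE 0.10, interval -0.20 to 0.27, adjusted p = 0.942). Rspo4, known for its role in nail formation in humans, was dim in both groups too, with 5.24, 5.25, 5.50 and 5.47 in parous and 5.37, 5.41, 5.29 and 5.39 in virgin mice, all 8 values within 0.263 of each other. Its log2 fold change was 0.0019 (SE 0.086, interval -0.19 to 0.20, adjusted p = 0.997).

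Rspo3, a ligand with a known role in blood vessel development, straddled the dim line. It had 5.34, 5.59, 5.85 and 5.97 in parous mice, with a mean of 5.69 ± 0.28, against 5.53, 5.63, 5.54 and 5.38 in virgin mice, with a mean of 5.52 ± 0.11 (SD, n = 4 each). Parous replicates 3 and 4 were the highest of the 8 arrays and parous replicate 1 the lowest, so the groups overlapped. The log2 fold change of 0.17 (SE 0.14, interval -0.15 to 0.48) did not pass (adjusted p = 0.712, exact permutation p = 0.286). It was 0.28 without parous replicate 1 (adjusted p = 0.434) and 0.075 without parous replicate 4 (adjusted p = 0.896). The parous mean lay above the dim line and the virgin mean just below it.

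**Figure D1:**
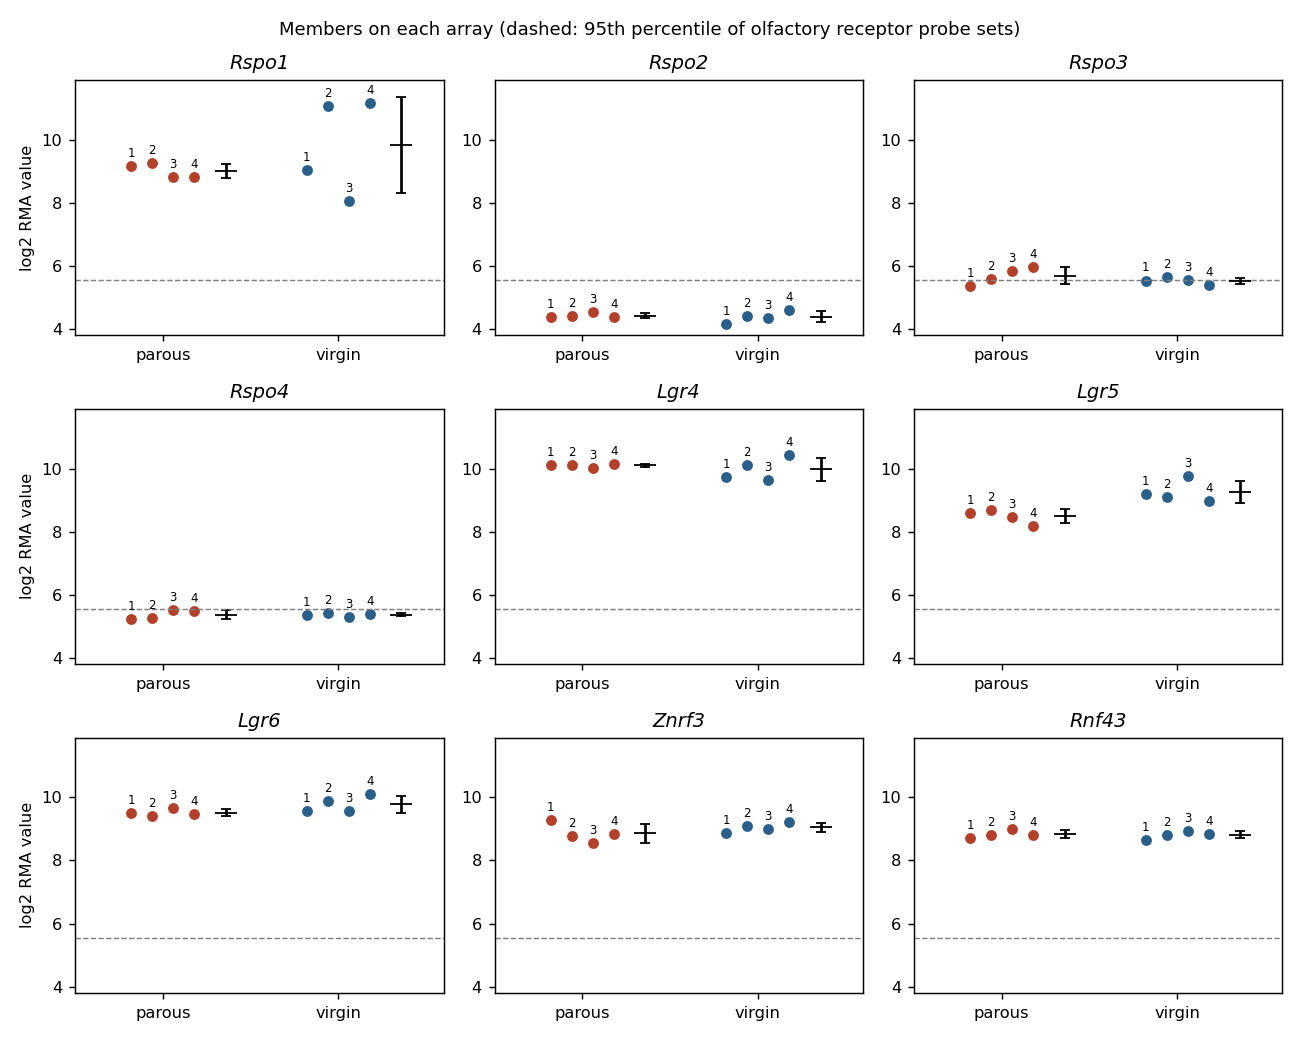
Log2 RMA values of the 9 genes on each array, parous on the left and virgin on the right, 1 point per pool of 5 mice with its replicate number; bars are mean ± SD (n = 4) and the dashed line at 5.54 marks the 95th percentile of olfactory receptor probe sets. Lgr5 is the only panel in which the groups do not overlap, and virgin replicates 2 and 4 of Rspo1, at 11.05 and 11.16, stand apart from the other arrays.

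Of the receptors, Lgr5 gave the clearest separation. Lgr5 encodes an R-spondin receptor that is itself a target of Wnt signaling in several tissues and marks stem cells of the mouse intestine. It had 8.60, 8.70, 8.47 and 8.19 in parous mice, against 9.20, 9.09, 9.76 and 8.98 in virgin mice. The highest parous value lay below the lowest virgin value, and virgin replicate 3 was the highest of all. Means were 8.49 ± 0.22 in parous and 9.26 ± 0.35 in virgin mice (SD, n = 4 each), a log2 fold change of -0.77 (SE 0.18, interval -1.19 to -0.35), or 1.70-fold lower in parous mice with an interval of 1.27 to 2.28. The exact 2-sided permutation p was 0.029, the smallest that 4 arrays against 4 can give, and the limma p was 0.00265 before and 0.161 after adjustment over all probe sets, so Lgr5 was not called. Groups without overlap are frequent at this size: 4.06% of all probe sets were lower in every parous than in every virgin array and 3.54% were higher. Leaving out each array in turn gave log2 fold changes of -0.86 to -0.60 and adjusted p of 0.116 to 0.392. In a cell mixture, fewer cells that express a gene and less transcript per cell cannot be told apart.

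Lgr6, whose product marks a progenitor subset in mouse skin and mammary epithelium, had 9.51, 9.41, 9.68 and 9.48 in parous mice and 9.56, 9.89, 9.58 and 10.11 in virgin mice. Parous replicate 3 lay above virgin replicates 1 and 3, so the groups overlapped. Means were 9.52 ± 0.11 in parous and 9.78 ± 0.27 in virgin mice, and the log2 fold change of -0.26 (SE 0.13, interval -0.57 to 0.04) did not pass (adjusted p = 0.518, exact permutation p = 0.143). Without virgin replicate 4 it was -0.15 and without virgin replicates 2 and 4, its 2 highest values, it was -0.047 (adjusted p = 0.965).

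Lgr4, the most widely expressed of the 3 receptors across tissues, had 10.11, 10.11, 10.03 and 10.15 in parous mice and 9.74, 10.12, 9.63 and 10.43 in virgin mice. All 4 parous arrays lay within 0.122, inside the virgin span of 0.795. Its log2 fold change was 0.12 (SE 0.17, interval -0.26 to 0.50, adjusted p = 0.861). Leaving out a virgin array moved it most: it was 0.0018 without replicate 3, 0.036 without replicate 1 and 0.27 without replicate 4 (adjusted p = 0.493). Without virgin replicates 2 and 4 together it was 0.41 (adjusted p = 0.194), more than 3 times its value over all arrays and of the same sign, while Lgr5 was at -0.99 in that comparison (adjusted p = 0.194).

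The ligases did not pass in either direction. Znrf3 had 9.28, 8.77, 8.55 and 8.85 in parous mice, with a mean of 8.86 ± 0.31, against 8.86, 9.09, 9.01 and 9.23 in virgin mice, with a mean of 9.05 ± 0.15 (SD, n = 4 each). Parous replicate 1 was the highest of the 8 arrays and the other parous arrays were the 3 lowest. The log2 fold change was -0.19 (SE 0.16, interval -0.54 to 0.17, adjusted p = 0.714). It was -0.33 without parous replicate 1 (adjusted p = 0.392) and -0.085 without parous replicate 3 (adjusted p = 0.922).

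Rnf43, the second ligase and, like Znrf3, a known target of Wnt signaling in the intestine, had 8.72, 8.80, 9.01 and 8.82 in parous mice and 8.66, 8.81, 8.95 and 8.84 in virgin mice. The values of the groups interleaved throughout. The log2 fold change was 0.019 (SE 0.092, adjusted p = 0.968), and its interval of -0.19 to 0.23 excludes a change beyond 1.17-fold in either direction.

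**Figure D2:**
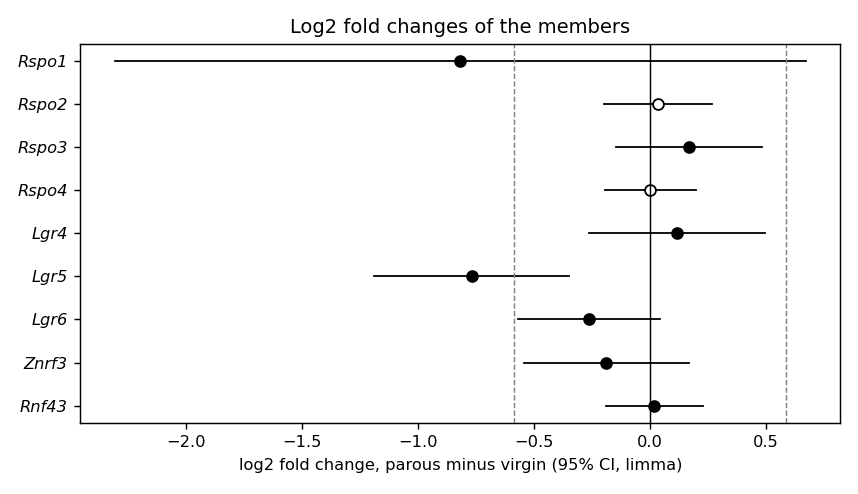
Log2 fold changes of the 9 genes, parous minus virgin, with 95% confidence intervals from limma (n = 4 arrays each); open points are dim in both groups and dashed lines mark a 1.5-fold change. The interval of Lgr5 (-1.19 to -0.35) is the only one that leaves out 0, and that of Rspo1 (-2.31 to 0.67) is the widest.

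Over the 9 genes, 0 were called by limma in either direction, against the 0.239% higher and 0.158% lower over all probe sets. At an unadjusted p under 0.05 limma found 1 lower, Lgr5, and 0 higher, where 6.14% of all probe sets were lower and 5.26% were higher. The methods' t-test, named there for comparisons in general while limma is named for the arrays, called 0 of the 9 as well after the same adjustment. Their median log2 fold change was 0.0019, with 5 positive and 4 negative values, beside a median of 0.0016 over all probe sets. Counts this small do not set the group apart from the array as a whole.

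The arrays themselves showed a recurring order. In 4 of the 7 genes that were not dim (Rspo1, Lgr4, Lgr6 and Znrf3), virgin replicates 2 and 4 held the 2 highest virgin values, as they did in 30.3% of the 21595 probe sets on the array that were not dim in both groups. The exceptions were Lgr5, for which virgin replicate 3 was the highest and virgin replicate 4 the lowest, Rnf43, for which virgin replicate 3 was also the highest, and Rspo3, for which virgin replicate 4 was the lowest.

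Proliferation genes moved with the same arrays. With each gene set to a mean of 0 across the arrays, the average of 11 of 12 listed genes was -0.58, -0.54, -0.99 and -0.72 in parous replicates 1 to 4, against -0.20, 1.35, -0.25 and 1.94 in virgin replicates 1 to 4. Virgin replicates 2 and 4 were again the highest. The 11 log2 values summed to between 68.4 and 73.4 in parous and between 76.5 and 100.6 in virgin arrays, none of the 11 was dim in both groups, and 0 of 11 passed the limma criteria, although all 11 were lower in parous mice at an unadjusted p under 0.05. B cell and plasma cell markers ran the other way within the virgin group (-0.14, -1.08, 0.82 and -0.97 in virgin replicates 1 to 4), beside 1.00, 0.15, 0.01 and 0.21 in parous replicates 1 to 4. Of the 6 measured, 2 were called higher in parous mice and 0 lower. Both were plasma cell genes, Jchain (log2 fold change 2.36, adjusted p = 0.0172) and Tnfrsf17 (1.24, adjusted p = 0.0308). Log2 fold changes were positive for 4 of the 6 and negative for 2. At an unadjusted limma p under 0.05, 2 were higher and 1, Sdc1, was lower (log2 fold change -0.24). Over all probe sets, 6.14% were lower and 5.26% were higher at an unadjusted limma p under 0.05. The part of proliferation genes or of B cell and plasma cell markers in the spread of Rspo1 was not tested.

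The genes most like Rspo1 over the 8 arrays were Cd3eap (Pearson r = 0.990), which encodes an RNA polymerase I subunit, Dnmt3b (r = 0.990), a DNA methyltransferase, and Gjb2 (r = 0.989), the gap junction protein connexin 26. Gjb2 had 9.58, 9.85, 9.48 and 9.36 in parous mice and 9.36, 10.93, 9.00 and 11.00 in virgin mice, again with virgin replicates 2 and 4 on top and virgin replicate 3 lowest. Those most like Lgr6 were Tsfm (r = 0.998), a mitochondrial elongation factor, Smarce1 (r = 0.988), a chromatin remodeling subunit, and Dcakd (r = 0.981). These correlations describe 8 arrays that also share group and cell composition, and were the highest among all symbols searched.

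Lgr5 had a different set of like genes. Capn8, a calpain protease, followed it with r = 0.986, Brinp3 with 0.988 and Pls1, an actin-bundling protein, with 0.973, and all 3 ranked the 8 arrays exactly as Lgr5 did (Spearman's rho of 1). Capn8 had 5.97, 6.11, 5.94 and 5.66 in parous mice and 6.74, 6.64, 7.20 and 6.62 in virgin mice. As Capn8 was picked for its correlation with Lgr5 and ranked the arrays alike, its groups also did not overlap and virgin replicate 3 was again the highest. This follows from the selection and is no separate observation.

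Hormone-sensing luminal markers were lower in parous arrays as well. Their mean over 7 of 9 listed genes was -0.22, -0.33, -0.16 and -0.55 in parous replicates 1 to 4, against 0.34, 0.30, 0.60 and 0.03 in virgin replicates 1 to 4. The virgin arrays stood in the same order as for Lgr5, and parous replicate 4 was the lowest for both. Parous replicates 1 to 3 stood in the opposite order. The 7 log2 values summed to between 55.7 and 58.4 in parous and between 59.7 and 63.7 in virgin arrays, Greb1 was dim in both groups, and 0 of 7 passed the limma criteria, with 4 lower and 0 higher at an unadjusted p under 0.05. Log2 fold changes were negative for 6 of the 7 and positive for 1, Greb1. The mean of the basal and myoepithelial markers, 10 of 10, also separated the groups, at -0.23 to -0.06 in parous and 0.01 to 0.23 in virgin arrays. Parous replicate 4 was the lowest and virgin replicate 3 the highest here too. Sums were 105.8 to 107.4 in parous and 108.2 to 110.3 in virgin arrays. Log2 fold changes were negative for 8 of the 10 and positive for 2, and 1 of the 10 was lower without overlap. By the limma criteria 0 of 10 passed, with 4 lower and 0 higher at an unadjusted p under 0.05. Of the 6 pan-luminal markers, 5 had negative log2 fold changes and 1 a positive one, with sums of 72.2 to 72.8 in parous and 72.7 to 73.8 in virgin arrays. None was called by limma, and 3 were lower and 0 higher in parous mice at an unadjusted p under 0.05, all 3 without overlap. Among them Krt19, named after its values were seen, passed the adjusted p but not the fold change (log2 fold change -0.47, adjusted p = 0.0436). Most fibroblast markers stood the other way, with positive log2 fold changes for 6 of 8 and negative ones for 2, and a median of 0.47. Of the 8, 0 were called, and 4 were higher and 0 lower at an unadjusted limma p under 0.05. Their sums were 81.9 to 87.9 in parous and 79.3 to 84.0 in virgin arrays. Over all probe sets, 6.14% were lower and 5.26% were higher at an unadjusted limma p under 0.05, and 4.06% were lower and 3.54% higher without overlap. The part of the marked cell types in the lower Lgr5 values was not tested.

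**Figure D3:**
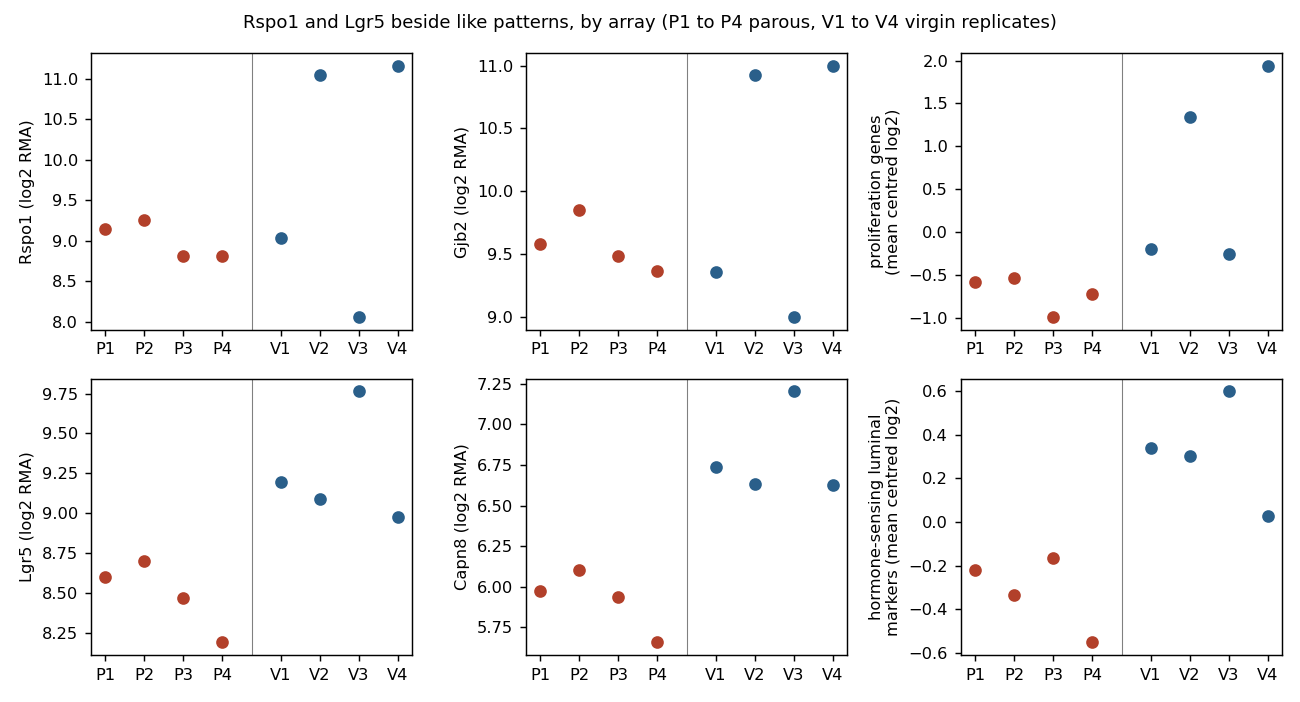
Rspo1, Gjb2 and the proliferation genes (top) and Lgr5, Capn8 and the hormone-sensing luminal markers (bottom) on each array, parous replicates P1 to P4 left of virgin replicates V1 to V4; gene panels are log2 RMA values and the list panels are means of centred log2 values, each on its own axis that does not start at 0. Top panels peak at V2 and V4, where the proliferation genes reach 1.35 and 1.94, and bottom panels peak at V3 with all parous arrays below all virgin arrays. Gjb2 and Capn8 were picked for their correlation with Rspo1 and Lgr5, so their like patterns follow from the selection.

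The remaining genes were followed with less contrast. Those most like Lgr4 were Olfr747 (r = 0.964), the chaperone gene Hspa8 (r = 0.958) and Vmn2r113 (r = 0.957), of which Olfr747 and Vmn2r113 were dim in both groups. Those most like Znrf3 were Matr3 (r = 0.984), a nuclear matrix protein, Imp4 (r = 0.962), a ribosomal RNA processing factor, and Lin54 (r = 0.955), a cell cycle gene repressor subunit. Rspo3 was most like 1700020D05Rik (r = 0.959), Slc9b2 (r = 0.958) and Zfp474 (r = 0.958), and Rnf43 most like Slc47a2 (r = 0.957), Gucy2e (r = 0.938) and Zfp738 (r = 0.931). All but Slc9b2 of these last 6 were dim in both groups.

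Genes that act beside R-spondins were read from the same fit. Of 19 Wnt ligands, 1 was called, lower: Wnt4, a progesterone-induced product of luminal cells. It had 7.68, 7.65, 7.73 and 7.87 in parous mice and 8.46, 8.69, 8.56 and 8.52 in virgin mice, a log2 fold change of -0.82 (SE 0.083, adjusted p = 0.00696). Its other probe set was called lower too (-0.95, SE 0.14, adjusted p = 0.0290). The median over the 19 was -0.023. At an unadjusted limma p under 0.05, 5 of the 19 were higher and 3, among them Wnt4, were lower. Without overlap, 3 were higher and 3 lower.

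Wnt receptors, the Frizzled and LRP proteins that ZNRF3 and RNF43 act upon or beside, gave 0 called of 12, with a median of 0.095, and at an unadjusted limma p under 0.05 there were 1 higher and 2 lower. Those with the lowest p were Fzd10 (log2 fold change -0.71, adjusted p = 0.0906) and Fzd3 (-0.67, adjusted p = 0.201). Fzd10 had 6.19, 6.17, 6.66 and 6.37 in parous mice and 6.91, 6.93, 7.29 and 7.11 in virgin mice, so the groups did not overlap.

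Secreted and membrane Wnt inhibitors gave 0 called of 16 and 5 higher and 3 lower at an unadjusted limma p under 0.05, with a median of 0.15. Sfrp2, a secreted Frizzled-related protein, had 9.89, 10.07, 10.14 and 10.14 in parous mice and 9.43, 9.37, 9.70 and 9.51 in virgin mice (log2 fold change 0.56, adjusted p = 0.0714). Wif1, a secreted protein that binds Wnts, had 7.85, 7.86, 7.80 and 7.93 in parous mice and 8.40, 9.34, 8.65 and 9.63 in virgin mice (-1.14, adjusted p = 0.130). Both separated the groups, in opposite directions, and Wif1 was highest in virgin replicates 2 and 4.

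Syndecans and glypicans, the surface proteoglycans that R-spondins can also bind, gave 0 called of 10, with a median of -0.041, and 2 higher and 3 lower at an unadjusted limma p under 0.05. The lowest p were those of Gpc3 (log2 fold change 0.65, adjusted p = 0.114) and Gpc6 (0.33, adjusted p = 0.225). Gpc3 had 10.19, 10.37, 10.31 and 10.46 in parous mice and 9.92, 9.44, 9.90 and 9.46 in virgin mice, with no overlap.

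Target and feedback genes of beta-catenin gave 0 called of 11 measured, 0 in either direction at an unadjusted limma p under 0.05, and a median of -0.021. Axin2, the feedback inhibitor often read as an output of the pathway, had 7.99, 7.57, 7.36 and 7.50 in parous mice and 7.36, 7.32, 7.68 and 7.59 in virgin mice, a log2 fold change of 0.12 (SE 0.15, adjusted p = 0.839). Its groups overlapped, with parous replicate 1 the highest of the 8 arrays. The lowest p were those of Tnfrsf19 (-0.55, adjusted p = 0.449) and the matrix proteoglycan Vcan (-0.91, adjusted p = 0.532). Vcan had 8.15, 8.51, 8.23 and 8.58 in parous mice and 8.47, 9.88, 8.22 and 10.54 in virgin mice, once more highest in virgin replicates 2 and 4.

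Over these 5 lists the methods' t-test called 0 genes after adjustment. Beside the counts of the lists, 6.14% of all probe sets were lower and 5.26% were higher at an unadjusted limma p under 0.05. Groups did not overlap for 4.06% of all probe sets on the lower and 3.54% on the higher side.

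**Figure D4:**
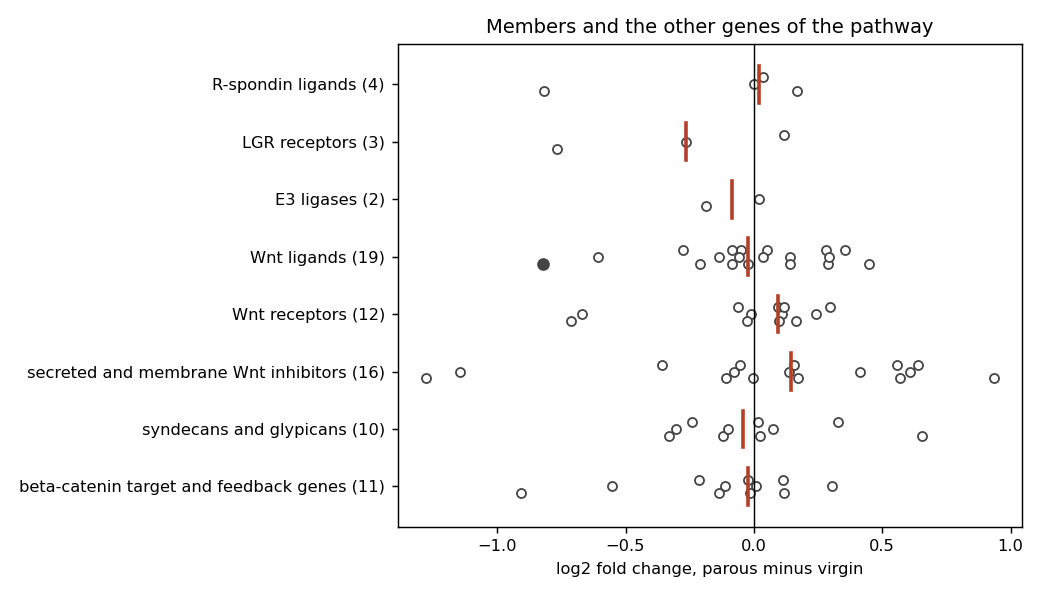
Log2 fold changes, parous minus virgin, of the R-spondins, LGR receptors and ligases and of 5 lists of other pathway genes, 1 point per gene with the number of genes in brackets; filled points passed the criteria and red lines are list medians, and points are spread vertically for legibility only. Wnt4, at -0.82, is the only filled point, and the medians of the 5 lists lie between -0.041 and 0.15.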

How the data were processed

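Total mammary cell suspensions were hybridized to 8 arrays, 4 parous and 4 virgin, 1 per pool of 5 mice. The deposited log2 values had been made by the authors with the rma() function of affy, whose version the sources used here do not state. RMA fits normalization over all arrays together and compresses low signals, so changes of dim genes are understated. The number of arrays limits precision, and no scan date or other batch label was given.

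Symbols came from the array annotation, updated through a RefSeq gene table: 21553 of the 21640 probe sets that name 1 gene matched by gene identifier, 3 by accession, and 84 kept the annotated symbol. All 34760 probe sets were fitted with limma 3.58.1 in R 4.3.3 (lmFit and eBayes, 2-sided, no covariate) and adjusted by Benjamini-Hochberg. For a gene with several probe sets, that with the highest mean stood for it. The fit was tested on simulated data with known changes. Exact permutation tests enumerated all splits of the 8 arrays. The score of a list is the mean of its centred genes. Named were all 9 genes, and up to 4 called genes of each pathway list or else the 2 with the lowest p. Also named were the 3 genes most correlated with each gene that was not dim. Axin2, Krt19, Jchain, Tnfrsf17 and Sdc1 were added after their values were seen. The genes and lists were chosen with earlier results of these data known. Some genes of the lists were not analysed here. Lists measured but without fold changes above were luminal progenitor, endothelial and pericyte, T cell and macrophage, adipocyte and keratinocyte markers, with 0 genes called in each. At an unadjusted limma p under 0.05, 3 of 6 luminal progenitor markers were higher in parous mice and 1 was lower. Of 9 endothelial and pericyte markers 1 was higher and 0 lower, and of 7 T cell and macrophage markers 2 were higher and 0 lower. For adipocyte and keratinocyte markers it was 0 in either direction. Pools were treated as replicates, and same-numbered pools were not taken as pairs.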

Additional observations from a re-analysis of the deposited data

How the results depend on the processing

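None of the 9 genes was called under any alternative but an unadjusted p under 0.05 with the fold change and mean criteria kept, which called 1 (Lgr5, 0 higher). Lgr5 had adjusted p of 0.0889 to 0.392 over its 20 alternatives. It was lower in all of them, but this count adds little. Its groups did not overlap, so leaving out or weighting arrays could not change its sign. Several other alternatives changed only the test or the criteria and kept its log2 fold change. Rspo1 changed sign to 0.46 without virgin replicates 2 and 4 together, its 2 highest values. Rspo4 changed sign to -0.026 on repeated quantile normalization, -0.015 on median centring and -0.017 with array weights, and leaving out single arrays moved it between -0.044 and 0.043, Rspo2 between -0.037 and 0.11, and Rnf43 between -0.038 and 0.063. These 3 have no settled direction, and Rspo2 and Rspo4 are dim. With the array median as the dim line, 3 of the 9 genes were dim in place of 2.

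Over the array, 138 called probe sets became 49 with the replicate number as a block (25 higher and 24 lower, 43 of them shared) and 11 by the methods' t-test. They became 1030 at an unadjusted p under 0.05 with the fold change and mean criteria kept. Leaving out single arrays gave 42 to 179, the lowest without parous replicate 3 and the highest without virgin replicate 3. Testing only probe sets that name 1 gene gave 58 higher and 71 lower in place of 83 and 55. Of the pathway genes, 1 (Wnt4) was called. The count was 0 with the replicate block, so that Wnt4 lost its call, and 0 by the methods' t-test. It was 10 at an unadjusted p with the fold change and mean criteria kept, and 1 to 2 on leaving out single arrays. The deviations of same-numbered pools correlated at 0.115, 0.183, -0.057 and 0.307, and although the study describes its experiments as holding virgin and parous mice side by side, no source ties an array's number to an experiment, so the numbers were not read as pairs, and the block changed no call among the 9 genes. The causes of these changes were not tested. The width of the printed intervals is what 4 pools a group can resolve.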
